A study of Rattus norvegicus with 6 samples.

Results

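The genes described here are 10 genes of the exocrine pancreas: the digestive enzyme genes *Amy2a3*, *Prss1*, *Cpa1*, *Cpb1*, *Cela1*, *Ctrb1*, *Pnlip* and *Cel*, and the transcription factor genes *Ptf1a* and *Bhlha15*. They were taken by name from a list of acinar genes, and all 10 were on the array, among 36174 distinct gene names. *Amy2a3* had 4 probes and each of the other genes had 1, which made 13 probes. Their levels were read in replicating and quiescent β-cells from the islets of young adult male Wistar rats. The islets had been isolated by collagenase, picked by hand and cultured overnight with the thymidine analogue EdU, which is built into DNA during S phase. The dispersed cells of both groups had been stained with the zinc dye Newport Green, fixed in paraformaldehyde and sorted as large, granular, Newport Green-bright cells. The EdU-positive cells are called replicating and the EdU-negative cells quiescent. Each of 3 islet preparations pooled 4 rats and gave 1 sample of each group, so that there were 6 arrays of 1 colour, 3 per group. The RNA was amplified before labelling, and the sort selects by size, granularity and dye without using a protein of the β-cell or of the acinar cell. All values below are deposited log2 values, a log2 ratio is replicating over quiescent, and a gene with several probes is represented by its brightest.

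Acinar cells make up most of the pancreas and surround the islets. They make digestive enzymes, largely as inactive precursors, pack them into zymogen granules and release them towards the gut. Amylase cuts starch, trypsin, chymotrypsin, elastase and the carboxypeptidases cut proteins, and pancreatic lipase and carboxyl ester lipase cut fats. The enzyme genes are switched on together by the PTF1 complex, in which PTF1A and an E protein bind DNA with the cofactor RBPJL, while BHLHA15 (also called MIST1) organises the secretory apparatus of the mature cell. Messenger RNAs of these enzymes are a common measure of how much exocrine tissue an islet sample holds.

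The probe sequences are shown because the 4 probes of *Amy2a3* did not give the same result. They lie on the minus strand of chromosome 2 in the rat build rn4, at chr2:209469306-209469365, chr2:209471361-209471420, chr2:209471415-209472615 and chr2:209518334-209518393. Each has 60 bases, so the third, which spans 1201 bases, skips genomic sequence between its ends. Counted along the genome, the probes start 0, 2055, 3250 and 49028 bases upstream of the first one. These are genomic distances and not positions in a transcript. Whether the probe at 49028 bases measures the same transcript as the others could not be worked out here. The capitals mark a stop codon at the very end of the first sequence.
*Amy2a3*, last probe: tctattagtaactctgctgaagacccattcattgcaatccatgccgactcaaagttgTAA
*Amy2a3*, probe at 2055 bases: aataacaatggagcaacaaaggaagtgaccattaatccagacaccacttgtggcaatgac
*Amy2a3*, probe at 3250 bases: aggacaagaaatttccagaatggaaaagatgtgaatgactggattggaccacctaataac
*Amy2a3*, probe at 49028 bases: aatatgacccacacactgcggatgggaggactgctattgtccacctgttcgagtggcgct
The probe of *Ctrb1*, at chr19:41611386-41611445 on the minus strand of rn4, is shown as that of the chymotrypsinogen gene whose ratio is discussed below.
*Ctrb1*: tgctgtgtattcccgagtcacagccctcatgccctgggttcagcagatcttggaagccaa
No probe of another gene on the array shared 20 consecutive bases with any of the 13 probes. The rat genome holds several amylase and trypsinogen genes of like sequence, and how far their transcripts hybridize to the probes of *Amy2a3* and *Prss1* is not known from these files.

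Of the 8 enzyme genes, 7 were well above background on all 6 β-cell arrays, as were 35360 of all 45598 probes. For most of these 7 genes the islet preparations were further apart than the replicating and quiescent cells. In preparation 1 the transcripts of amylase, trypsinogen, chymotrypsinogen and both carboxypeptidases were lower in both groups than in preparations 2 and 3. For *Amy2a3* and *Prss1* the fitted difference between preparations 2 and 1 was 18.2-fold and 18.8-fold, or 4.19 and 4.23 on the log2 scale. As the median over its 4 probes the value of *Amy2a3* was 2.58, and that of *Prss1* was 5.25 without the replicating and 3.21 without the quiescent array of preparation 1. In limma on all 6 arrays, no adjusted p was under 0.05 for any of the 10 genes between replicating and quiescent cells. None was under 0.05 between preparations either, a comparison chosen after the values had been seen. In such bulk samples fewer cells of a type and less RNA per cell cannot be told apart.

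Signals on the arrays were well above background for 80.8% to 98.5% of the probes, and no spot was saturated. Replicating arrays resembled each other more closely than quiescent arrays, with Pearson's r of 0.967 to 0.986 against 0.654 to 0.867 across probes, which are not independent replicates. The quiescent array of preparation 2 stood apart, with 1583 spots marked as outliers against 252 to 299 on the others. As a check of the labels, *Ins2*, an insulin gene, read 16.53, 16.38 and 16.86 in the replicating cells of preparations 1, 2 and 3, and 16.13, 15.51 and 16.87 on the quiescent arrays. *Mki67*, a marker of dividing cells, read 12.51, 12.86 and 12.28 on the replicating arrays and 10.24, 12.23 and 8.20 on the quiescent ones by its brightest probe. In preparation 2 its other probes were further apart. They read 9.24, 11.09 and 11.93 on the replicating array and 6.18, 8.48 and 8.81 on the quiescent array. Of the duct genes, the keratin gene *Krt19* lay between 5.95 and 7.06, *Krt7* between 12.39 and 13.44, *Krt20* between 7.91 and 12.11, and the transcription factor gene *Sox9* between 13.82 and 14.64.

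*Amy2a3*, which encodes pancreatic amylase, read 9.19, 13.47 and 12.44 in the replicating cells of preparations 1, 2 and 3. Its quiescent readings were 8.91, 13.01 and 12.47. By this probe, the brightest of 4, both arrays of preparation 1 lay below all 4 others, and the groups overlapped. Preparation 2 exceeded preparation 1 by a fitted log2 difference of 4.19 (SE 0.38) and preparation 3 exceeded it by 3.40 (SE 0.38). The log2 ratio of replicating over quiescent cells was 0.24 (95% confidence interval -0.56 to 1.04), with an adjusted p of 0.719 in limma.

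*Prss1*, which encodes a trypsinogen, read 11.81, 15.17 and 14.11 on the replicating arrays and 8.88, 13.97 and 13.54 on the quiescent arrays. In every preparation the replicating array was the higher of the pair, and the quiescent array of preparation 1 was the lowest of all, yet the groups overlapped because the replicating array of preparation 1 lay below the quiescent arrays of preparations 2 and 3. The log2 ratios within preparations 1, 2 and 3 were 2.92, 1.20 and 0.57. The fitted log2 ratio was 1.56 (95% confidence interval 0.21 to 2.92), which is 2.96-fold, with an unadjusted p of 0.0312 and an adjusted p of 0.475 in limma. It fell to 0.88 with an unadjusted p of 0.187 without preparation 1, and the unadjusted p was 0.34 without the preparation as a block and 0.0676 with the processed signal scaled to the 75th percentile. Between preparations, *Prss1* was higher in preparation 2 than in preparation 1 by a log2 difference of 4.23 (SE 0.65), and in preparation 3 by 3.49.

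*Ctrb1*, which encodes chymotrypsinogen B, read 10.93, 14.34 and 13.60 on the replicating arrays. It read 10.17, 13.16 and 12.96 on the quiescent arrays. Again the replicating array was above its partner in each preparation, and again the preparations were further apart than the groups. Fitted over the 3 pairs, the log2 ratio was 0.86 (95% confidence interval 0.05 to 1.67), which is 1.81-fold, with an unadjusted p of 0.0415 and an adjusted p of 0.475 in limma. The call at the unadjusted p was lost in 7 of the 10 alternative settings, with values from 0.056 where dim probes were left out to 0.476 without the block. The 3 ratios themselves, at 0.76, 1.18 and 0.64, were alike in size, and the ratio lay between 0.70 and 0.97 with any 1 preparation left out.

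*Cpa1*, which encodes carboxypeptidase A1, read 9.84, 13.36 and 12.33 on the replicating arrays and 9.61, 12.71 and 12.52 on the quiescent arrays. Its course over the preparations was that of amylase, with a log2 difference of 3.31 (SE 0.41) between preparations 2 and 1 and of 2.70 between preparations 3 and 1. *Cpb1*, the gene of carboxypeptidase B1, read 7.95, 9.44 and 9.42 on the replicating arrays and 7.13, 9.13 and 9.49 on the quiescent arrays. Preparation 1 was again the lowest in both groups, and here the log2 difference was 1.74 (SE 0.42) for preparation 2 and 1.91 for preparation 3. The log2 ratios of replicating over quiescent cells were 0.23 (95% confidence interval -0.63 to 1.09) for *Cpa1* and 0.36 (-0.52 to 1.23) for *Cpb1*, with adjusted p of 0.751 and 0.623 in limma. The ratio of *Cpb1* turned to -0.04 and -0.05 under the 2 scalings to the 75th percentile.

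*Cel*, which encodes carboxyl ester lipase, read 8.23, 11.54 and 9.69 on the replicating arrays and 8.04, 9.26 and 10.10 on the quiescent arrays. Both arrays of preparation 1 were below the other 4, as for the genes above, and the replicating array of preparation 2 was the highest. The log2 difference was 2.27 (SE 0.72) between preparations 2 and 1 and 1.76 between preparations 3 and 1. The first was 1.07 without the replicating and 3.46 without the quiescent array of preparation 2. Its log2 ratio of replicating over quiescent cells was 0.69 (95% confidence interval -0.82 to 2.19) with an adjusted p of 0.587 in limma, and -0.11 without preparation 2.

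*Cela1*, which encodes an elastase that cuts proteins after small residues, did not have preparation 1 as the lowest in both groups. It read 8.004, 8.96 and 8.23 on the replicating arrays and 9.14, 10.47 and 8.03 on the quiescent arrays. The quiescent array was the higher of the pair in preparations 1 and 2 and the lower in preparation 3. The fitted log2 difference between preparations 3 and 1 was -0.44, though on the replicating arrays preparation 3 read higher. The log2 ratio was -0.82 (95% confidence interval -1.94 to 0.31), with an adjusted p of 0.483 in limma. Without preparation 3 it was -1.32, with an unadjusted p of 0.0259.

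*Pnlip*, the gene of pancreatic triglyceride lipase, read 6.35, 6.47 and 6.30 on the replicating arrays and 6.68, 6.20 and 6.54 on the quiescent arrays. It was well above background on the 3 quiescent arrays and not well above background on any replicating array, so that its level in replicating cells has only a bound. The quiescent mean was 6.48 and the mean of the bound on the replicating arrays was 6.39, which are 1.06-fold apart. In preparation 2 the replicating array read higher than its partner, at 6.47 against 6.20. The fitted log2 ratio was -0.11 (confidence interval -0.93 to 0.72), with an adjusted p of 0.892 in limma. These values do not settle in which group *Pnlip* was higher. With the processed signal its log2 ratio was -1.92, with an unadjusted p of 0.0392, and without preparation 1 it was 0.0096. Between preparations 2 and 1 its log2 difference was -0.18, and this too changed sign with the scaling. The probe spans 2358 bases at chr1:265114441-265116798 in rn4, and its bases are thus not contiguous in the genome.

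Neither of the 2 transcription factor genes had preparation 1 as the lowest in both groups. *Ptf1a*, the DNA-binding subunit of PTF1, read 6.08, 8.14 and 6.50 on the replicating arrays and 6.44, 6.08 and 6.65 on the quiescent arrays. Only the replicating array of preparation 2 stood out, and on the replicating array of preparation 1 the signal was not well above background. The fitted log2 ratio was 0.52 (95% confidence interval -0.93 to 1.97), and it was -0.25 without preparation 2 and -0.71 with the processed signal. *Bhlha15*, the regulator of the secretory apparatus, read 9.98, 10.11 and 10.43 on the replicating arrays and 10.36, 9.27 and 11.00 on the quiescent arrays. Its log2 ratio was -0.04 (95% confidence interval -1.08 to 1.00), its highest array was in preparation 3, and its 2 arrays of preparation 1 lay within the range of the others.

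**Figure D1:**
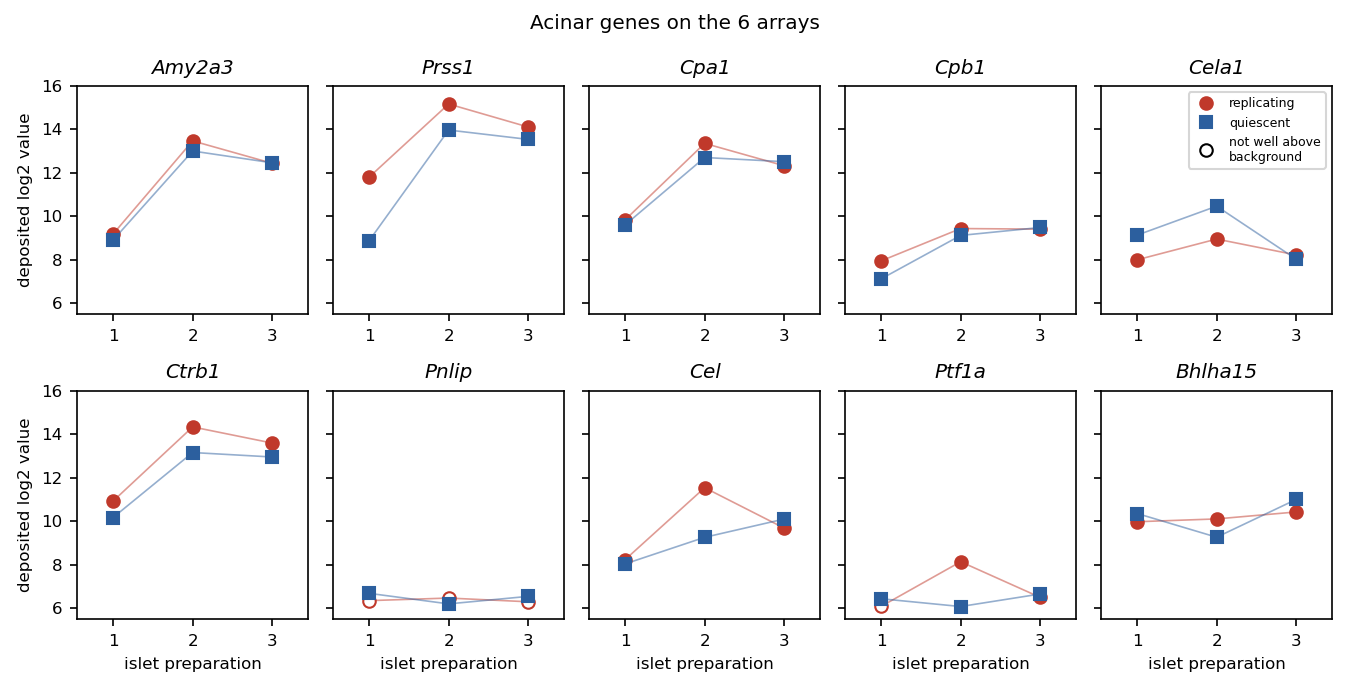
Deposited log2 value (y axis) of the 10 acinar genes in the replicating (red circles) and quiescent (blue squares) sample of each islet preparation (x axis), 1 array per point; lines join arrays of a group and open symbols are signals not well above background. *Amy2a3* rises from 9.19 and 8.91 in preparation 1 to 13.47 and 13.01 in preparation 2, while *Pnlip* stays between 6.20 and 6.68.

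Between replicating and quiescent cells, limma called 0 of 45598 probes at an adjusted p under 0.05, a share of 0%, and so 0 of the 10 genes. No adjusted p was below 0.0977, and 4379 probes had an unadjusted p of at most 0.05. At that unadjusted p, 2 of the 10 genes were higher in replicating cells (*Prss1* and *Ctrb1*), where 5.01% of all probes were, and 0 were lower, where 4.59% of all probes were. The ratio was above 0 for 7 genes and below 0 for 3. None of the 10 genes had groups that did not overlap, whereas 9.01% of all probes had every replicating array above every quiescent array and 7.1% the reverse. The median log2 ratio of the 10 genes was 0.30, against -0.07 for all probes, and it was 0.21, 0.75 and -0.12 within preparations 1, 2 and 3. With the processed signal scaled to the 75th percentile the medians were 0.14 for the genes and -0.71 for all probes, and with the normexp values scaled in that way they were 0.23 and -0.39. The split of all calls at the unadjusted p moved with this scaling from 52.2% higher to 17.2% and 21.4% higher.

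**Figure D2:**
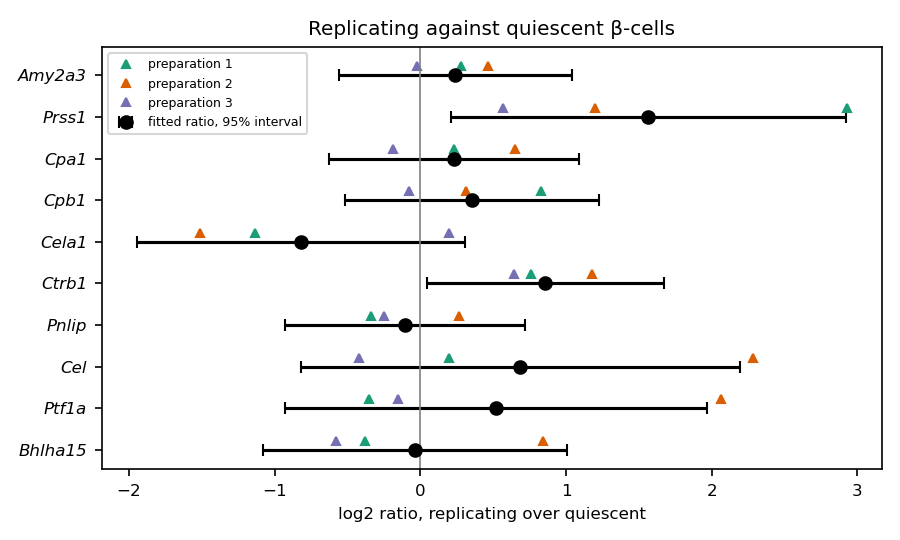
Log2 ratio of replicating over quiescent β-cells (x axis) for each of the 10 acinar genes (y axis). Black points are the fitted ratios with their 95% confidence intervals and triangles are the ratios within the 3 islet preparations. The intervals of *Prss1* (0.21 to 2.92) and *Ctrb1* (0.05 to 1.67) lie above 0, and the other 8 include 0.

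The comparison between islet preparations was chosen after the values had been seen. With the group in the fit, a test of any difference between the 3 preparations had an unadjusted p of at most 0.05 for 5 of the 10 genes, *Amy2a3* (0.0002), *Cpa1* (0.0009), *Ctrb1* (0.0008), *Prss1* (0.0025) and *Cpb1* (0.0101), where 2.5% of all probes passed. At the adjusted p limma called 0 of the 10 genes and 0% of all probes, and these 5 genes had an adjusted p of 0.745. Without the replicating array of preparation 2 the counts of genes were 8 at the unadjusted and 4 at the adjusted p, but 26.2% and 7.63% of all probes (3407 at the adjusted p) passed there as well. Without preparation 1, which leaves preparations 2 and 3, 0 genes passed the unadjusted p. The normexp values scaled to the 75th percentile called 4 genes at the adjusted p, *Amy2a3*, *Prss1*, *Cpa1* and *Ctrb1*, among 307 probes in all (0.673%). Preparation 1 was the lowest of the 3 in both groups for 6 of the 10 genes, the 5 named and *Cel*, where it was for 6.33% of all probes. The median log2 difference over the 10 genes was 2.01 between preparations 2 and 1 and 1.84 between preparations 3 and 1, against -0.02 and -0.02 over all probes.

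For *Amy2a3*, *Prss1*, *Cpa1*, *Cpb1*, *Ctrb1* and *Cel*, preparations 2 and 3 were closer to each other than either was to preparation 1, which did not hold for *Cela1*, *Ptf1a* and *Bhlha15*. From preparation 2 to preparation 3 the log2 difference was -0.79 for *Amy2a3*, -0.74 for *Prss1*, -0.61 for *Cpa1*, -0.47 for *Ctrb1*, -0.51 for *Cel* and 0.17 for *Cpb1*. The order of preparation 2, then 3, then 1 was the same in replicating and quiescent cells for *Amy2a3*, *Prss1*, *Cpa1* and *Ctrb1*. Of all 45598 probes, 1121 had this order in both groups. The summed linear signal of the 10 genes was 8995, 85202 and 44188 in the replicating cells of preparations 1, 2 and 3, and 5356, 43555 and 35748 on the quiescent arrays. In each preparation the sum was higher in the replicating sample. A linear sum gives most weight to bright genes, and *Prss1* and *Ctrb1* had the highest means over the arrays, 12.91 and 12.53. The median log2 ratio of the 10 genes was 0.21, 0.75 and -0.12 within preparations 1, 2 and 3. The sum is thus no measure of a shared direction of the 10 genes. The lowest sum outside preparation 1 was several times the highest sum within it.

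The 4 probes of *Amy2a3* measured the preparations differently. The last probe, which ends on the stop codon, is the one given above, with a log2 difference of 4.19 between preparations 2 and 1. At 3250 bases the probe read 7.48, 11.63 and 10.33 on the replicating arrays and 7.36, 8.47 and 9.74 on the quiescent arrays, a log2 difference of 2.63 (SE 0.81). At 2055 bases it read 6.96, 8.39 and 8.32 on the replicating arrays and 7.65, 8.83 and 8.19 on the quiescent arrays, a log2 difference of 1.30 (SE 0.41). Both had preparation 1 lowest in both groups, like the last probe. The probe at 49028 bases read 10.79, 11.34 and 11.01 on the replicating arrays and 11.59, 11.78 and 10.73 on the quiescent arrays, with a log2 difference of 0.36 (SE 0.44) and an unadjusted p of 0.37 between preparations. The ratio of replicating over quiescent cells was -0.33 and -0.32 for the probes at 2055 and 49028 bases and 1.29 (95% confidence interval -0.39 to 2.97) for the one at 3250 bases, and none had an unadjusted p of at most 0.05. The size of the difference between preparations thus depended on which of the probes named *Amy2a3* was read. Whether all of them measure the same transcript is not known here.

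**Figure D3:**
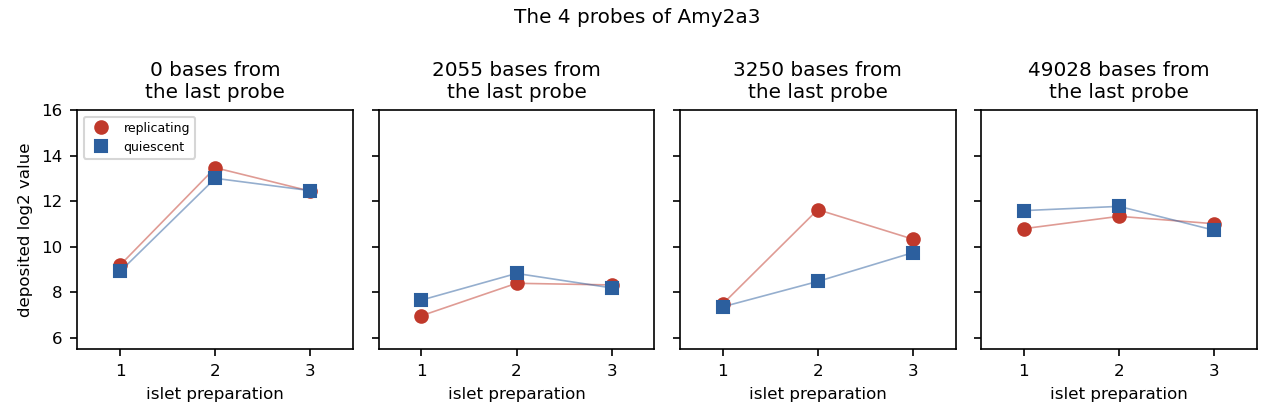
Deposited log2 values (y axis) of the 4 *Amy2a3* probes in the replicating (red circles) and quiescent (blue squares) sample of each islet preparation (x axis), 1 array per point, ordered by the genomic distance in bases from the last probe. The difference between preparations 2 and 1 is 4.19 for the last probe and 0.36 for the probe at 49028 bases.

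Further acinar genes came from 3 lists, all 41 of which were on the array: 16 enzymes, 17 secreted and membrane proteins and 8 regulators. For *Cela2a*, *Ctrc* and *Erp27* the spot on the quiescent array of preparation 2 was an outlier and was left out of the fit. Between replicating and quiescent cells, 1 of the 41 genes was higher at the unadjusted p, where 5.01% of all probes were. At that p 0 were lower, where 4.59% of all probes were, and 0 passed the adjusted p. The one was *Prss3*, another trypsinogen, which read 9.06, 11.78 and 11.39 on the replicating arrays and 7.51, 8.19 and 10.92 on the quiescent arrays. It was the higher in all 3 pairs, with a log2 ratio of 1.87 (95% confidence interval 0.23 to 3.51), an unadjusted p of 0.0326 and an adjusted p of 0.475 in limma. Of the 41 genes, 18 had a ratio above 0 and 23 below 0, and their median was -0.07. The groups did not overlap for 3. Over all probes, 9.01% had every replicating array above every quiescent array and 7.1% the reverse. *Pnliprp1*, a lipase-related protein, was above on all replicating arrays with a log2 ratio of 0.31. *Klk1*, a kallikrein, and *Cuzd1*, a zymogen granule protein, were above on all quiescent arrays with log2 ratios of -0.78 and -0.31. None of these 3 had an unadjusted p of at most 0.05.

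Between preparations 0 of the 41 genes passed the adjusted p in limma. The test had an unadjusted p of at most 0.05 for 5 of them, 4 among the 16 enzymes, where 2.5% of all probes passed; each had an adjusted p of 0.745, and they are named here after their values were seen. *Try10*, a trypsin gene, read 7.91, 11.43 and 10.41 on the replicating arrays and 8.86, 10.95 and 10.49 on the quiescent arrays (unadjusted p of 0.0047). *Pla2g1b*, the pancreatic phospholipase A2, read 10.001, 12.97 and 11.54 on the replicating arrays and 10.68, 12.47 and 12.39 on the quiescent arrays (unadjusted p of 0.0111). *Reg1a*, a secreted protein of the acinar cell, had a log2 difference of 2.87 between preparations 2 and 1, and the values were 1.70 for *Prss3* and 1.48 for *Cela3b*. The median log2 difference between preparations 2 and 1 was 0.64 for the 16 enzymes, 0.61 for the 17 secreted and membrane proteins and -0.31 for the 8 regulators. The regulators include *Rbpjl*, the acinar partner of *Ptf1a*, which read 7.86, 7.98 and 7.62 on the replicating arrays and 8.86, 8.06 and 7.40 on the quiescent arrays and was not lowest in preparation 1. The secretory transcription factor gene *Xbp1* lay between 12.64 and 13.02 on all 6 arrays.

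**Figure D4:**
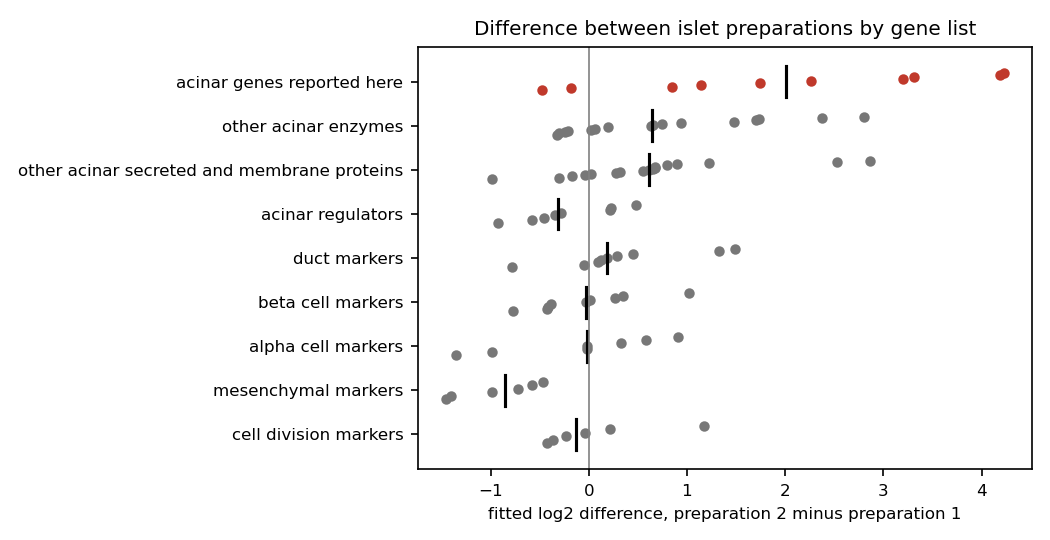
Fitted log2 difference between islet preparations 2 and 1 (x axis) of every gene in 9 lists (y axis), 1 point per gene and with the median as a black bar. The 10 acinar genes reported here (red) have a median of 2.01, the other acinar enzymes 0.64, and the lists of islet, duct, mesenchymal and dividing cells between -0.85 and 0.19.

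The lists of markers of other cells had smaller or opposite median differences between the preparations. The median log2 difference between preparations 2 and 1 was 0.19 for 9 duct markers, -0.03 for 9 β-cell markers, -0.02 for 7 α-cell markers, -0.85 for 6 mesenchymal markers and -0.13 for 6 markers of cell division. Between replicating and quiescent cells, at the unadjusted p, 6 of 6 division markers, 4 of 6 mesenchymal markers, 3 of 7 α-cell markers and 1 of 9 duct markers were higher. Of all probes 5.01% were higher at that p. Among the β-cell markers 1 of 9 was lower, where 4.59% of all probes were. The summed signal of the mesenchymal markers was 12719 to 38082 on the replicating and 4657 to 5669 on the quiescent arrays, and that of the α-cell markers was 22710 to 90720 and 5856 to 17637. For the duct markers it was 24562 to 28571 and 26965 to 44045. A signal well above background on all 6 arrays was seen for 7 of 9 duct, 6 of 7 α-cell and 6 of 6 mesenchymal markers. The same held for 35360 of all 45598 probes, and no marker was listed at 0. The part of other cells in the ratios of *Prss1* and *Ctrb1*, and of acinar cells or free acinar RNA in the difference between preparations, was not tested.

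The genes with the profile most like that of the 10 acinar genes over the 6 arrays were sought among 19852 probes with a gene symbol and a signal well above background on every array. Likeness was the root mean square difference, in log2 units, between a probe's values and the median profile of the 10 genes, each centred on its own mean. That median profile was -1.06, 1.46 and 0.32 in the replicating cells of preparations 1, 2 and 3 and -1.64, 0.40 and 0.52 on the quiescent arrays. The nearest genes were *Zmynd15* (0.41), *Nupr1* (0.44), *Pla2g1b* (0.45), *Rap2b* (0.48) and *Miip* (0.50). *Pla2g1b* is the only one of the 5 on the acinar lists. *Nupr1*, a nuclear protein of the stress response, read 8.59, 10.16 and 9.70 on the replicating arrays and 8.40, 9.31 and 9.84 on the quiescent arrays. Among the 10 genes themselves, the difference from their median profile was smallest for *Cpb1* (0.37) and *Cel* (0.37) and largest for *Cela1* (1.27), *Bhlha15* (1.17), *Prss1* (1.13) and *Pnlip* (1.11).

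The promoters of the 10 genes were read from RefSeq for the build GRCr8, as the 250 bases before each start site, because PTF1 is a known regulator of these enzymes. The complex is known to bind an E-box together with a TC-box, and the letters CACCTG and TTTCCC were searched on both strands; the 2 motifs do not overlap. CACCTG was present in 6 of the 10 promoters (*Prss1*, *Cpb1*, *Cela1*, *Ctrb1*, *Cel* and *Bhlha15*), against 15.9% of 33469 promoters, and TTTCCC in 5 of the 10 (*Prss1*, *Cela1*, *Ctrb1*, *Pnlip* and *Cel*), against 22%. Both were present in 4 of the 10, against 3.23% of all promoters. The 3 sequences below, with the matches in capitals, show how differently they can be placed; GGGAAA is TTTCCC on the other strand.
*Ctrb1*, chr19:56566979-56567228, minus strand: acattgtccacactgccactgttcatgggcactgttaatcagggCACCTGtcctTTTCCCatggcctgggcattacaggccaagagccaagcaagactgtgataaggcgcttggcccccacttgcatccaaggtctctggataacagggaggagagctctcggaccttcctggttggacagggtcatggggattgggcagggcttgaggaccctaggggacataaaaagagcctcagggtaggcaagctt
*Cela1*, chr7:133665062-133665311, minus strand: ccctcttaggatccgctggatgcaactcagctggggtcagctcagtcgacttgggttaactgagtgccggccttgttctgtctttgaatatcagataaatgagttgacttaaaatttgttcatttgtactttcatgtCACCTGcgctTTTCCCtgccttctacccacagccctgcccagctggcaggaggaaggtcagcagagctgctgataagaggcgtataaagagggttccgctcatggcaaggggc
*Prss1*, chr4:71330999-71331248, plus strand: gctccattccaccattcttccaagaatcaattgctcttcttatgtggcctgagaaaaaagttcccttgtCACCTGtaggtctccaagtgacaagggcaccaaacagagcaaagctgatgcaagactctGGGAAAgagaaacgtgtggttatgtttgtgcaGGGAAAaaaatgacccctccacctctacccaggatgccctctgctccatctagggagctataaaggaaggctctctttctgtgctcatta
In *Ctrb1* the E-box starts at position -206 relative to the start site and the TC-box follows 4 bases after it. In *Cela1* the same pair, with the same 4-base gap, begins at position -113. In *Prss1* the E-box begins at position -181, and both TC-boxes lie on the other strand, nearer the start site. The pair with a gap of 4 bases was noticed in these sequences and then counted: 8 of 33469 promoters held it on either strand (0.0239%), among them *Ctrb1*, *Cela1* and, from the other acinar enzymes, *Prss2*. *Amy2a3* and *Cpa1*, which had large differences between preparations, had neither motif in this window, and *Cela1*, which had the pair, had log2 differences from preparation 1 of 1.14 and -0.44 where *Ctrb1* had 3.20 and 2.73. A match of letters is a description of the sequence and not evidence of binding.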

How the data were processed

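Sorted replicating and quiescent β-cells from 3 islet preparations were measured on 6 Agilent rat arrays of 1 colour, all on 1 slide. The authors read each array with Feature Extraction 10.7.3.1 and deposited its intensity values, not normalized between arrays, with marks for outliers and for signal well above background. A table of log2 values for each spot, deposited by the authors, was made by normexp background correction and quantile normalization, and all 6 columns of it had a median of 8.32. The deposited log2 values were used here; they differed by at most 0.116 from values computed from the intensities with an offset of 50, while the offset of the authors is not given in the sources used here. The probe positions in the files are on the build rn4, and promoters were those of RefSeq on GRCr8; all 10 genes matched by symbol. Exon annotation of rn4 was not used here.

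Outlier spots were treated as missing, spots of a probe were averaged, and 45598 probes were fitted with limma 3.58.1 in R 4.3.3 (lmFit, eBayes; data.table, version 1.17.8) with the islet preparation as a block. P-values were adjusted by Benjamini-Hochberg over all probes. The labels and methods give 1 array of each group per preparation, and the paired arrays deviated from the means of their groups with a correlation across probes of 0.0561, 0.242 and 0.258. The number of arrays limits the precision. A gene was represented by its brightest probe over all arrays. All 10 genes are named with every probe, and of the 41 other acinar genes those at an unadjusted p of at most 0.05 or with groups that did not overlap; *Rbpjl* and *Xbp1*, and the genes named in the comparison of preparations, were chosen after their values were seen. The genes, the lists and the rules were chosen with earlier results of these data known. The fit was tested on simulated data. Alternatives were values recomputed from the intensities, 2 scalings to the 75th percentile, a filter on dim probes, outlier spots kept, no block, the median over probes, and each preparation or array left out. The qPCR measurements of the study were not analysed here.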

Additional observations from a re-analysis of the deposited data

How the results depend on the processing

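The number of probes at the adjusted p was 0, and it was 719 with normexp values scaled to the 75th percentile, 99 without the replicate block, and between 0 and 84 with 1 preparation left out, the 84 without preparation 2. The number of the 10 acinar genes at the unadjusted p was 2. It was 1 with the processed signal (*Pnlip*, lower, log2 ratio -1.92), 1 with normexp scaled to the 75th percentile, 1 with only probes well above background and 0 without the replicate block, and between 0 and 2 with 1 preparation left out. Of the other acinar genes 1 passed, against 2 with the processed signal, 3 with normexp scaled to the 75th percentile, 0 without the block and between 0 and 4 with 1 preparation left out, the 4 without preparation 3. The median log2 ratio of the 10 genes lay between -0.05 and 0.51 with 1 preparation left out.

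The count of the 10 genes that differed between preparations was 0 at the adjusted p and 4 with normexp scaled to the 75th percentile, where 307 of all probes passed, and between 0 and 4 with a preparation or array left out, the 4 without the replicating array of preparation 2, where 3407 of all probes passed. At the unadjusted p it was 5, and between 0 and 8 with a preparation or array left out; 26.2% of all probes passed with the 8.

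Of the 100 ratios of single genes under alternatives, 80 kept their direction and their side of the unadjusted p, 10 lost the call, 2 gained one and 8 turned. Those that turned were *Cpb1* (-0.044 with the processed signal, -0.053 with normexp scaled), *Ptf1a* (-0.71 with the processed signal, and between -0.25 and 0.95 with 1 preparation left out), *Pnlip* (between -0.29 and 0.0096), *Cel* (between -0.11 and 1.24) and *Bhlha15* (between -0.48 and 0.23). The log2 difference between preparations 2 and 1 turned for *Pnlip* (0.22 with the processed signal, 0.32 with normexp scaled, and between -0.46 and 0.10 with a preparation or array left out), *Ptf1a* (between -0.31 and 2.01) and *Bhlha15* (between -1.14 and 0.18), and kept its direction for the other 7 genes. The causes were not tested. Dim probes, *Pnlip* and *Ptf1a*, are limited by their signal over background.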

Other observations

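Some other acinar genes, and some markers of other cells, were higher on the quiescent array of preparation 2 than on the rest. *Pdia2*, a disulfide isomerase of the pancreas, read 11.67 there and between 6.88 and 7.77 on the other 5 arrays. *Spink1*, a trypsin inhibitor, read 8.60 on that array and between 5.91 and 6.49 on the others. *Gp2*, a membrane glycoprotein of the zymogen granule, read 9.15 there and between 6.82 and 7.17 on the others. This was not particular to acinar genes. The duct marker *Krt20* read 12.11 there and between 7.91 and 9.99 on the others, and the duct marker *Onecut1* read 11.76 and between 7.67 and 8.73. Other markers went the other way, such as the insulin gene *Ins1*, which was lowest there at 15.92. That array also had the most spots marked as outliers, 1583. On the replicating array of preparation 2, *Reg3b*, a secreted lectin, was the highest of the 6 at 11.25, while its partner read 7.38. *Aqp8*, a water channel of the acinar cell membrane, read 10.09, 10.04 and 9.76 on the replicating arrays and 11.23, 11.20 and 9.87 on the quiescent arrays, with a log2 ratio of -0.80 and an adjusted p of 0.475 in limma. These genes were chosen after their values were seen.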
